A study of Mus musculus with 15 samples.

Results

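The transforming growth factor beta (TGF-β) and bone morphogenetic protein (BMP) pathway was followed in mouse embryonic fibroblasts (MEFs) through adipogenic differentiation. Its members were chosen by name, from a pattern of mouse symbols that covers the TGF-β, BMP, growth differentiation factor and inhibin ligands, their receptors, the Smads and Smurfs, the latent TGF-β binding proteins and the follistatin, gremlin, noggin and chordin antagonists. The pattern matched 71 protein-coding symbols. Of these, 54 had 10 or more counts in at least 3 samples and are described here, out of 46603 gene identifiers in all. The 54 members were 15 ligands, 4 latent TGF-β binding proteins, 13 receptors, 8 extracellular antagonists or binding proteins, 10 Smads and Smurfs and 4 others. A further 16 symbols stayed below the count rule, namely Bmp3, Bmp4, Bmp6, Bmp8a, Bmp8b, Bmp15, Chrdl2, Fstl4, Fstl5, Gdf2, Gdf3, Gdf7, Gdf10, Inhbc, Inhbe and Nog. Gdf1 was not analysed here.

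Ligands of this family are secreted dimers that bring type I and type II receptor kinases together at the cell surface. TGF-β and activin receptors then phosphorylate Smad2 and Smad3, BMP receptors phosphorylate Smad1, Smad5 and Smad9, and both sets enter the nucleus with Smad4, while Smad6 and Smad7 act as feedback inhibitors. TGF-β and activin signalling is known to hold back fat cell formation and to favour a contractile, matrix-producing fibroblast, whereas several BMPs are known to commit mesenchymal precursors to the fat lineage.

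The cells were wild-type MEFs of BALB/c mice, made from 10.5 day embryos and grown in DMEM with 10% fetal bovine serum. The paper's introduction names another strain and an older embryo age for MEFs in general, and its methods state neither for these cells. MEFD0 cells were taken at day 0, before any treatment. MEFD3plu cells had then spent 3 days in growth medium with a cocktail of 4 factors. These were the phosphodiesterase inhibitor IBMX at 0.5 mM, insulin at 10 μg/mL, the glucocorticoid dexamethasone at 1 μM and the Pparg agonist rosiglitazone at 10 μM. MEFD3min cells were their untreated counterparts of the same day. MEFD5plu cells received the same 3 days of treatment followed by 2 days without the factors, and MEFD5min cells were untreated to day 5. Each of the 5 conditions held 3 samples, with the replicate numbers 1, 3 and 4. The labels do not say whether these came from separate embryos or cultures, so p-values measure the spread between these samples, which may be technical. MEFs are a mixed primary population, and in such bulk RNA fewer cells of a type and less RNA per cell cannot be told apart.

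Total counts per sample lay between 24030558 and 37281126. The fibroblast markers Col1a1, Col1a2, Pdgfra, Pdgfrb, Thy1, Vim, Dcn and Lum summed to 4590 to 18500 CPM (counts scaled to a fixed library size with TMM factors), with the lowest sums in MEFD3plu. Of these markers only Vim (mean 6540 CPM in MEFD0 and 1130 in MEFD3plu) and Thy1 were themselves lowest in MEFD3plu. Col1a1, Col1a2, Pdgfra, Dcn and Lum were lowest in MEFD0, and Pdgfrb was highest in MEFD3plu. The 8 adipocyte markers summed to 45.7 to 69.5 CPM over the 9 untreated samples and to 7660 to 11500 CPM over the 6 treated ones. The 4 smooth muscle or myofibroblast markers Acta2, Tagln, Cnn1 and Myh11 summed to 478 to 554 CPM in MEFD0, 119 to 171 in MEFD3min, 18.2 to 24.2 in MEFD3plu, 719 to 820 in MEFD5min and 192 to 201 in MEFD5plu. Other cell types gave little signal, at most 15.1 CPM for 6 macrophage markers with Adgre1 at 0 throughout, 2.43 CPM for 5 endothelial, 1.19 CPM for 5 epithelial, 2.11 CPM for 4 skeletal muscle and 11.7 CPM for 4 neural markers. Replicates 3 and 4 of MEFD3min were the least alike of the 15 replicate pairs, as the chi-square statistic over genes, divided by its degrees of freedom, was 79.7 there and 4.39 to 32.8 in the other pairs. Leaving out MEFD3min replicate 3 raised the number of members called at day 3 from 34 to 38.

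Of the 54 members, 53 were tested, together with 15997 genes in all, with the quasi-likelihood test of edgeR. P-values were adjusted over all tested genes by the Benjamini-Hochberg method, and a gene was called at an adjusted p under 0.05. Acvrl1 had too few counts for the test. At day 3, in MEFD3plu/MEFD3min, 34 members were called, 15 higher and 19 lower in treated cells, where 56.1% of all tested genes were called, 28.0% in each direction. At day 5, in MEFD5plu/MEFD5min, 37 members were called, 12 higher and 25 lower, against 50.5% of all genes, 26.3% higher and 24.2% lower. The median log2 fold change over the 53 members was -0.04 at day 3 and -0.29 at day 5, while that over all genes was -0.00 and 0.01. Without regard to direction, the median change of a member was 0.78 on the log2 scale at day 3 and 0.69 at day 5, compared with 0.49 and 0.42 over all genes. A total of 40 members had 10 or more counts in every sample, and among these 24 were called at day 3 and 28 at day 5. Such counts were found in 12251 genes in all, whose called share is not given here. The 24 and 28 were therefore not compared with a background. For those members, leaving out any single sample moved the log2 fold change of a called gene by at most 0.42 at day 3 and 0.35 at day 5. The remaining members include genes that were near 0 in one condition, which could pass the filter through the condition where they were high.

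The day 3 effect minus the day 5 effect, tested as the treatment by day interaction, was called in 31 members, 18 of them with the higher value at day 3 and 13 with the higher value at day 5. Over all genes the interaction was called in 48.5%, 22.6% with the higher value at day 3 and 25.8% at day 5. When only the total counts set the scaling, the split was 22 and 6, and the median of all genes moved by 0.18 on the log2 scale. In untreated culture, 39 members were called in MEFD3min/MEFD0, 25 higher and 14 lower, where 60.0% of all genes were called, 31.4% higher and 28.6% lower. The count was 36 in MEFD5min/MEFD0 (background 46.4%), with 21 higher and 15 lower (background 24.5% and 21.9%). Between the untreated days, 29 members were called in MEFD5min/MEFD3min (background 42.8%), 8 higher and 21 lower (background 21.3% and 21.5%). Between the treated days, 39 were called in MEFD5plu/MEFD3plu (background 63.0%), 12 higher and 27 lower (background 33.8% and 29.2%). Against the start, 41 members were called in MEFD3plu/MEFD0 (background 63.5%), 27 higher and 14 lower (background 33.9% and 29.7%). In MEFD5plu/MEFD0, 42 were called (background 65.0%), 21 in each direction (background 35.2% higher and 29.8% lower). MEFD3min serves as the control of the first comparison and as the later state of MEFD3min/MEFD0, so those comparisons share samples, as do MEFD5plu/MEFD5min and MEFD5min/MEFD0.

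**Figure D1:**
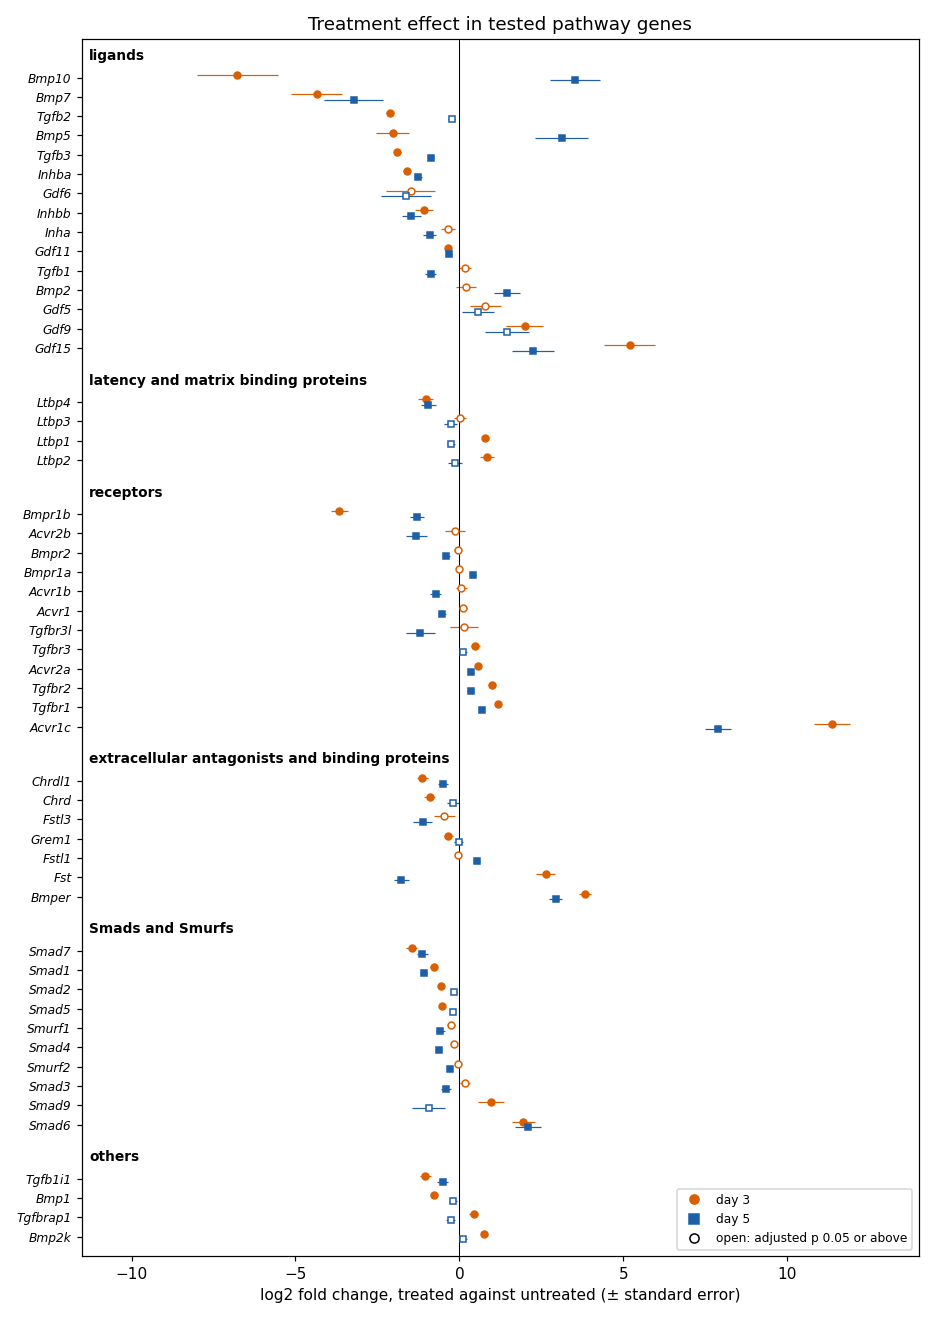
Log2 fold change of treated against untreated cells at day 3 (circles) and day 5 (squares) for tested members, grouped by role, with horizontal bars for the standard error and open symbols for an adjusted p of 0.05 or above. Ligands lie mostly to the left of 0, and Fst and Bmp10 lie on opposite sides of 0 on the 2 days.

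Of 15 ligands, 8 fell and 2 rose at day 3, with a median log2 fold change of -1.08, against 28.0% of all tested genes in each direction. At day 5, 7 fell and 4 rose, with a median of -0.31, against 24.2% lower and 26.3% higher over all genes. Several ligands were near 0 counts in 1 or more conditions and could pass the filter through the conditions where they were high.

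Tgfb2 showed the widest swing of the TGF-β ligands. In replicates 1, 3 and 4, given in this order for every gene, Tgfb2 stood at 6.35, 6.10 and 6.34 in MEFD0, 140, 164 and 148 in MEFD3min and 55.6, 39 and 44.3 in MEFD5min (CPM). With treatment, Tgfb2 was at 32.4, 36.6 and 35 in MEFD3plu and 41.2, 36.3 and 40.5 in MEFD5plu. The MEFD0 samples were far below all others, the MEFD3min samples far above all others, and the other 3 conditions lay in between, with MEFD5min and MEFD5plu overlapping. Tgfb2 rose in untreated culture to day 3 (log2 fold change 4.59 ± 0.128, edgeR adjusted p = 7.79e-14; errors of log2 fold changes are standard errors). In treated cells of day 3 it was lower than in untreated ones (log2 fold change -2.12 ± 0.111, edgeR adjusted p = 4.54e-11). At day 5 the log2 fold change was -0.24 ± 0.109 with an edgeR adjusted p of 0.0814, which passed the test without MEFD5min replicate 3 (edgeR adjusted p = 0.0142), with DESeq2 or its size factors and under scaling by the total counts (adjusted p from 0.00615 to 0.0406). The change between the days was itself called (interaction log2 fold change -1.89 ± 0.154, edgeR adjusted p = 4.37e-08).

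Tgfb3 CPM were 41.6, 44.6 and 39.6 in MEFD0, 85.9, 97.3 and 84 in MEFD3min and 67.4, 54.5 and 61.2 in MEFD5min. With treatment, Tgfb3 was at 24.2, 23.8 and 24.4 in MEFD3plu and 35.7, 30.6 and 33.1 in MEFD5plu. MEFD3plu held the lowest values and MEFD3min the highest, and no treated sample reached its untreated counterparts on either day. Tgfb3 fell at day 3 (log2 fold change -1.89 ± 0.0941, edgeR adjusted p = 2.33e-11) and, by less, at day 5 (log2 fold change -0.88 ± 0.0918, edgeR adjusted p = 6.43e-07), with an interaction of -1.0 ± 0.13 (edgeR adjusted p = 7.97e-06). Treated cells of both days were also below the MEFD0 samples, without overlap.

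Tgfb1, the best studied ligand of the family, stood at 26.5, 25.8 and 20.4 in MEFD0, 27, 46.1 and 26.2 in MEFD3min and 34.1, 34.9 and 33.5 in MEFD5min CPM. With treatment, Tgfb1 was at 36.3, 40.5 and 35.2 in MEFD3plu and 21.8, 16.4 and 17.4 in MEFD5plu. One MEFD3min sample, replicate 3, was above every other sample, so the day 3 groups overlapped, whereas all MEFD5plu samples lay below all MEFD5min samples. At day 3 the log2 fold change was 0.17 ± 0.173 (edgeR adjusted p = 0.423), and without MEFD3min replicate 3 it became 0.49 and was called (edgeR adjusted p = 0.00294). At day 5 Tgfb1 fell (log2 fold change -0.88 ± 0.177, edgeR adjusted p = 0.000533), and the difference between the days was called (interaction log2 fold change 1.05 ± 0.247, edgeR adjusted p = 0.00206).

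Per kilobase of exon, the 3 TGF-β ligands summed to 18.3 ± 1.28 CPM per kb in MEFD0 (mean ± SD, n = 3 each). The length used was that of all annotated exons of a gene, at 5042 bases for Tgfb1, 5791 for Tgfb2 and 3383 for Tgfb3. It was not that of the transcripts expressed, so the sums and the shares of each ligand depend on the annotation. The untreated sum was 59 ± 6.36 at day 3 and 32.8 ± 3.3 at day 5, and the treated sum was 20.5 ± 0.765 at day 3 and 20.3 ± 1.7 at day 5. The lowest MEFD3min sum, 54.9, was above the highest sum of any other condition, 36.3. Tgfb3 made up 67.9 ± 1.77% of the sum in MEFD0, and Tgfb2 made up 5.94 ± 0.527%. In MEFD3min both were near 44%, at 44.7 ± 1.41% for Tgfb3 and 44.3 ± 1.61% for Tgfb2. The share of Tgfb1 was 11 ± 2.45% in MEFD3min and 36.1 ± 1.56% in MEFD3plu, where the ligands were closest to equal shares.

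Inhba encodes the subunit of activin A. Its CPM were 29.6, 33.2 and 30.1 in MEFD0, 38.1, 32.9 and 33.4 in MEFD3min and 107, 85.9 and 106 in MEFD5min. With treatment, Inhba was at 11.2, 11.4 and 11.6 in MEFD3plu and 48.8, 36 and 40.1 in MEFD5plu. MEFD3plu was the lowest condition and MEFD5min the highest, and treated samples were below untreated ones on both days without overlap. Inhba fell at day 3 (log2 fold change -1.61 ± 0.117, edgeR adjusted p = 3.36e-09) and at day 5 (log2 fold change -1.26 ± 0.111, edgeR adjusted p = 8.74e-08), while it rose between the untreated days (log2 fold change 1.52 ± 0.112, edgeR adjusted p = 1.08e-08). Inhbb, the subunit of activin B, stood at 1.71, 1.72 and 1.42 in MEFD0, 1.63, 1.68 and 1.38 in MEFD3min and 1.73, 1.48 and 1.54 in MEFD5min CPM. With treatment, Inhbb was at 0.682, 0.971 and 0.564 in MEFD3plu and 0.417, 0.483 and 0.814 in MEFD5plu. Its 9 untreated samples stayed within 1.38 to 1.73 CPM and all 6 treated samples were at 0.971 CPM or below. The log2 fold change of Inhbb was -1.08 ± 0.283 at day 3 (edgeR adjusted p = 0.0036) and -1.47 ± 0.291 at day 5 (edgeR adjusted p = 0.00049). For the inhibin α subunit Inha, the day 3 value was -0.35 ± 0.202 (edgeR adjusted p = 0.156), and the gene fell at day 5 (log2 fold change -0.90 ± 0.199, edgeR adjusted p = 0.00114). The interaction of Inha was not called, except without MEFD3plu replicate 4.

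The BMP and growth differentiation factor ligands were sparse, and most are given as counts. Bmp2, a ligand known to act early in fat lineage commitment, had 3, 3 and 10 in MEFD0, 113, 163 and 90 in MEFD3min and 28, 13 and 10 in MEFD5min counts. With treatment, Bmp2 was at 113, 158 and 141 in MEFD3plu and 71, 29 and 40 in MEFD5plu. It was at or under 10 counts in MEFD0 and at 90 to 163 in both day 3 conditions, which overlapped. Bmp2 rose in MEFD3min/MEFD0 (log2 fold change 4.55 ± 0.447, edgeR adjusted p = 1.34e-07), did not pass the test at day 3 (log2 fold change 0.19 ± 0.308, edgeR adjusted p = 0.617) and was higher in treated cells at day 5 (log2 fold change 1.45 ± 0.396, edgeR adjusted p = 0.00573). The call of its interaction (log2 fold change -1.26 ± 0.503, edgeR adjusted p = 0.0485) was lost without MEFD3min replicate 1 or 3, MEFD3plu replicate 1, 3 or 4, MEFD5min replicate 3 or 4 or MEFD5plu replicate 1 or 4 (edgeR adjusted p from 0.0518 to 0.18).

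Bmp7 was at 0 counts in all MEFD0 samples, at 42, 32 and 16 in MEFD3min, at 0, 4 and 0 in MEFD3plu, at 15, 5 and 12 in MEFD5min and at 2, 0 and 1 in MEFD5plu. Untreated samples of both days were above all treated samples of the same day. Bmp7 was at least 10.3-fold higher in MEFD3min than in MEFD0, taking 3 counts per library as the floor, and fell at day 3 (edgeR adjusted p = 0.000214). At day 5 the untreated level was 10.6 times the treated one (counting interval 3.31 to 54, edgeR adjusted p = 0.00823).

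Bmp10 had 0, 0 and 0 in MEFD0, 12, 4 and 23 in MEFD3min and 2, 1 and 1 in MEFD5min counts. With treatment, Bmp10 was at 0, 0 and 0 in MEFD3plu and 17, 15 and 18 in MEFD5plu. It was read in MEFD3min and in MEFD5plu, and was at 0 in MEFD0 and in MEFD3plu. Treated cells were at least 4.49-fold lower at day 3 (edgeR adjusted p = 0.000373) and 12.6-fold higher at day 5 (counting interval 4.62 to 48, edgeR adjusted p = 0.00183). Bmp5 had 0, 0 and 0 in MEFD0, 27, 16 and 23 in MEFD3min and 1, 0 and 1 in MEFD5min counts. With treatment, Bmp5 was at 6, 4 and 6 in MEFD3plu and 11, 6 and 3 in MEFD5plu. The gene Gm26903 on the other strand covers 46.7% of the exon bases of Bmp5, so its reads may not all be its own. For Bmp5 the day 3 log2 fold change was -2.03 ± 0.501 (edgeR adjusted p = 0.00292), and the day 5 level was 10.1 times higher in treated cells (counting interval 2.45 to 88.9, edgeR adjusted p = 0.00502).

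Gdf15, a ligand produced under cellular stress that acts on a receptor in the brainstem, moved the other way. Its counts were 4, 3 and 1 in MEFD0, 1, 0 and 1 in MEFD3min and 1, 4 and 5 in MEFD5min. With treatment, Gdf15 was at 32, 14 and 40 in MEFD3plu and 25, 13 and 11 in MEFD5plu. All treated samples were above all untreated ones of the same day. The ratio of treated to untreated level was 43.3 at day 3 (counting interval 11.6 to 363, edgeR adjusted p = 2.17e-05), and the log2 fold change at day 5 was 2.24 ± 0.629 (edgeR adjusted p = 0.00685). The interaction of Gdf15 (log2 fold change 2.94 ± 1.15, edgeR adjusted p = 0.0435) lost its call without MEFD3min replicate 1, 3 or 4, MEFD3plu replicate 1 or 4, MEFD5min replicate 3 or 4 or MEFD5plu replicate 3 or 4 (edgeR adjusted p from 0.0554 to 0.11). Gdf9 rose at day 3 (log2 fold change 1.99 ± 0.573, edgeR adjusted p = 0.0071) from counts of 2, 20 and 6 to 25, 41 and 44. Its day 5 log2 fold change was 1.45 ± 0.665 (edgeR adjusted p = 0.0791), called without MEFD5min replicate 4 or MEFD5plu replicate 1 (edgeR adjusted p from 0.0266 to 0.0492) and with no filter on low counts (edgeR adjusted p = 0.044). Gdf11, a relative of myostatin, fell by a small amount on both days, at -0.34 ± 0.0863 on the log2 scale at day 3 (edgeR adjusted p = 0.00259) and -0.31 ± 0.0891 at day 5 (edgeR adjusted p = 0.00805). Gdf5 and Gdf6 were not called on either day. Gdf6 was called at day 5 without MEFD5plu replicate 4 (edgeR adjusted p = 0.0447), and on both days with no filter on low counts (edgeR adjusted p = 0.0404 and 0.0292). An antisense gene, Gm15557, covers 40.3% of the exon bases of Gdf5.

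Latent TGF-β binding proteins hold the inactive ligand in the matrix. Ltbp1 stood at 465, 496 and 386 in MEFD0, 229, 296 and 251 in MEFD3min and 370, 389 and 318 in MEFD5min CPM. With treatment, Ltbp1 was at 452, 450 and 438 in MEFD3plu and 320, 279 and 303 in MEFD5plu. MEFD3min was the lowest condition, and MEFD3plu lay within the range of MEFD0. Ltbp1 rose with treatment at day 3 (log2 fold change 0.79 ± 0.111, edgeR adjusted p = 1.11e-05), and its day 5 value of -0.26 ± 0.11 (edgeR adjusted p = 0.0627) was called without MEFD5min replicate 4 (edgeR adjusted p = 0.0143). That value was also called with DESeq2 or its size factors, no filter, only the compared samples, the replicate number as a block and total-count scaling (adjusted p from 0.00616 to 0.042). The difference between the days was called (interaction log2 fold change 1.04 ± 0.156, edgeR adjusted p = 3.8e-05).

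Ltbp2, which is a matrix protein of the same structure that does not bind latent TGF-β, had 31.5, 37.9 and 26.9 in MEFD0, 6.77, 10.8 and 6.32 in MEFD3min and 12.5, 13.6 and 7.57 in MEFD5min CPM. With treatment, Ltbp2 was at 15.3, 14.9 and 12.9 in MEFD3plu and 10.8, 10.9 and 8.87 in MEFD5plu. MEFD0 was highest by a wide margin, and the day 5 groups overlapped. Ltbp2 was higher in treated cells at day 3 (log2 fold change 0.85 ± 0.214, edgeR adjusted p = 0.00272) and was at -0.13 ± 0.213 at day 5 (edgeR adjusted p = 0.641). Its interaction was called (log2 fold change 0.98 ± 0.301, edgeR adjusted p = 0.0129). Ltbp4 showed the opposite direction, with 78.1, 90.8 and 61.7 in MEFD0, 238, 427 and 187 in MEFD3min and 146, 122 and 116 in MEFD5min CPM. With treatment, Ltbp4 was at 127, 166 and 124 in MEFD3plu and 81.6, 57.6 and 60.2 in MEFD5plu. MEFD3min replicate 3 was well above replicates 1 and 4, and treated and untreated samples did not overlap on either day. Ltbp4 fell at day 3 (log2 fold change -1.03 ± 0.235, edgeR adjusted p = 0.00127) and at day 5 (log2 fold change -0.95 ± 0.237, edgeR adjusted p = 0.00309), and without MEFD3min replicate 3 the day 3 value stayed called. Ltbp3 was not called at day 3 (log2 fold change 0.02 ± 0.189, edgeR adjusted p = 0.941), but without MEFD3min replicate 3 it was higher in treated cells at 0.36 on the log2 scale (edgeR adjusted p = 0.0359).

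Both signalling receptors of TGF-β and the co-receptor betaglycan were higher in treated cells at day 3. The type I receptor kinase Tgfbr1 had 64, 57.9 and 59 in MEFD0, 80.6, 72.9 and 79.1 in MEFD3min and 62.8, 62.5 and 67.3 in MEFD5min CPM. With treatment, Tgfbr1 was at 178, 170 and 185 in MEFD3plu and 99.6, 104 and 109 in MEFD5plu. Treated samples were above the untreated ones on both days, and MEFD3plu was above all other conditions. Tgfbr1 rose at day 3 (log2 fold change 1.19 ± 0.0732, edgeR adjusted p = 3.5e-10) and by less at day 5 (log2 fold change 0.69 ± 0.073, edgeR adjusted p = 7.24e-07), with a called interaction (log2 fold change 0.50 ± 0.103, edgeR adjusted p = 0.000696).

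Tgfbr2, the type II receptor kinase that binds the ligand first, stood at 71.7, 65.2 and 58.1 in MEFD0, 209, 262 and 220 in MEFD3min and 125, 96.4 and 107 in MEFD5min CPM. With treatment, Tgfbr2 was at 434, 489 and 449 in MEFD3plu and 152, 126 and 138 in MEFD5plu. The order of conditions was MEFD0, MEFD5min, MEFD5plu, MEFD3min and MEFD3plu, and neighbours in this order did not overlap. Tgfbr2 rose at day 3 (log2 fold change 0.99 ± 0.112, edgeR adjusted p = 9.07e-07), and its increase at day 5 (log2 fold change 0.34 ± 0.112, edgeR adjusted p = 0.0188) was lost without MEFD5min replicate 3 or 4 or MEFD5plu replicate 1 (edgeR adjusted p from 0.0868 to 0.096) and also under scaling by the total counts. The interaction was called (log2 fold change 0.65 ± 0.158, edgeR adjusted p = 0.00267). Tgfbr3, or betaglycan, had 119, 124 and 94.2 in MEFD0, 294, 405 and 289 in MEFD3min and 130, 132 and 117 in MEFD5min CPM. With treatment, Tgfbr3 was at 475, 474 and 440 in MEFD3plu and 149, 132 and 133 in MEFD5plu. Both day 3 conditions were above every sample of the other days. Tgfbr3 rose at day 3 (log2 fold change 0.49 ± 0.123, edgeR adjusted p = 0.00262), and at day 5 the groups overlapped and the log2 fold change was 0.12 ± 0.124 (edgeR adjusted p = 0.433). Its interaction was not called (log2 fold change 0.37, edgeR adjusted p = 0.0929). That interaction passed the test without MEFD3min replicate 3 or MEFD5min replicate 4, with the replicate number as a block (edgeR adjusted p = 0.0325) and under total-count scaling (edgeR adjusted p = 0.023). At day 3, therefore, Tgfb2 and Tgfb3 were lower while Tgfbr1, Tgfbr2 and Tgfbr3 were higher in treated cells.

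**Figure D2:**
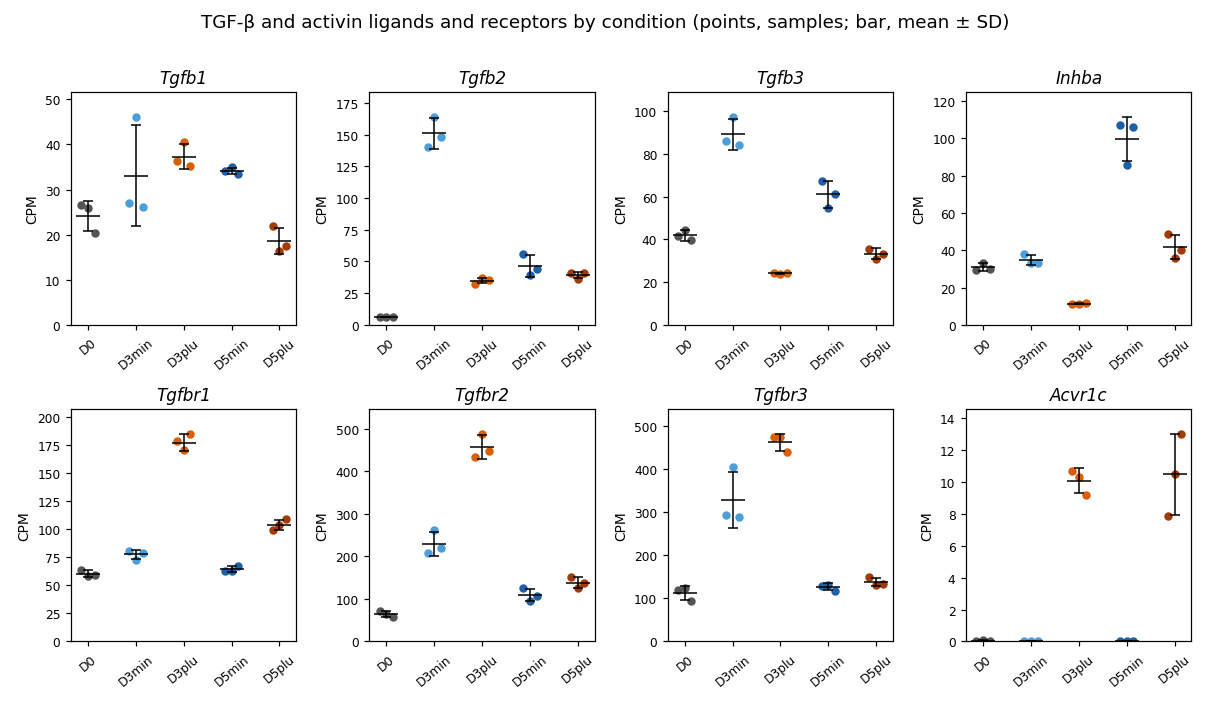
CPM of 3 TGF-β ligands, the activin A subunit gene Inhba, and 4 receptors in each of the 15 samples (points), with the mean and SD of each condition (black bars, n = 3) and axes from 0. Tgfb2 and Tgfb3 peak in MEFD3min, Tgfbr1 and Tgfbr2 peak in MEFD3plu, and Acvr1c is near 0 in every untreated sample.

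Acvr1c encodes ALK7, a type I receptor for activin-like ligands that is known from fat tissue. Its counts were 0, 4 and 1 in MEFD0, 0, 0 and 0 in MEFD3min and 2, 1 and 1 in MEFD5min. With treatment, Acvr1c was at 314, 330 and 327 in MEFD3plu and 265, 327 and 431 in MEFD5plu. All untreated samples had 4 counts or fewer and all treated samples 265 or more. Treated cells were at least 108-fold higher at day 3 (edgeR adjusted p = 1.25e-10), and 258 times higher at day 5 (counting interval 100 to 947, edgeR adjusted p = 4.45e-10). Between MEFD3plu and MEFD5plu the levels overlapped, at 10.1 ± 0.776 and 10.5 ± 2.55 CPM (mean ± SD, n = 3 each). The sum of the 8 adipocyte markers moved with Acvr1c over the conditions, and the part of cell composition in this result was not tested.

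Bmpr1b, a type I receptor for BMPs and growth differentiation factors, was the receptor with the largest decrease at day 3. It stood at 5.90, 4.96 and 5.97 in MEFD0, 3.35, 3.99 and 3.43 in MEFD3min and 2.07, 2.30 and 2.05 in MEFD5min CPM. With treatment, Bmpr1b was at 0.341, 0.251 and 0.254 in MEFD3plu and 1.13, 0.677 and 0.814 in MEFD5plu. No conditions overlapped, and MEFD3plu was lowest with 8 to 10 counts a sample. Bmpr1b fell at day 3 (log2 fold change -3.66 ± 0.247, edgeR adjusted p = 1.19e-09) and at day 5 (log2 fold change -1.28 ± 0.214, edgeR adjusted p = 0.000103), with a called interaction (log2 fold change -2.39 ± 0.338, edgeR adjusted p = 2.18e-05). Bmpr1a, the other BMP type I receptor of this subgroup, was at 232 ± 33.7 CPM in MEFD3min and 229 ± 18.5 in MEFD3plu and did not pass the test there (log2 fold change -0.02 ± 0.0922, edgeR adjusted p = 0.883), whereas it rose at day 5 (log2 fold change 0.40 ± 0.0924, edgeR adjusted p = 0.00172). The interaction of Bmpr1a (log2 fold change -0.42, edgeR adjusted p = 0.014) was lost under scaling by the total counts (edgeR adjusted p = 0.1).

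Several other receptors were called at day 5 alone, and each of their interactions was tested. Acvr2b, a type II activin receptor, had 1.58, 1.38 and 1.45 in MEFD0, 1.57, 2.27 and 1.11 in MEFD3min and 2.26, 2.65 and 1.38 in MEFD5min CPM. With treatment, Acvr2b was at 1.33, 1.88 and 1.33 in MEFD3plu and 0.774, 0.580 and 1.15 in MEFD5plu. The day 3 groups overlapped, and at day 5 all treated samples were below all untreated ones. Acvr2b fell at day 5 (log2 fold change -1.31 ± 0.328, edgeR adjusted p = 0.00313), while its interaction (log2 fold change 1.18 ± 0.454, edgeR adjusted p = 0.0414) was lost without MEFD3min replicate 1 or 4, MEFD3plu replicate 3, MEFD5min replicate 1 or 3 or MEFD5plu replicate 1 or 3 (edgeR adjusted p from 0.0743 to 0.11). Acvr1b, the type I receptor ALK4 of activin, had 20.1, 18.2 and 16.6 in MEFD0, 22.3, 24.8 and 14.3 in MEFD3min and 23.5, 25 and 18.8 in MEFD5min CPM. With treatment, Acvr1b was at 23.3, 23.1 and 17.9 in MEFD3plu and 14.6, 12.8 and 13.4 in MEFD5plu. The day 3 groups overlapped, and at day 5 all treated samples were below all untreated ones. Acvr1b fell at day 5 (log2 fold change -0.72 ± 0.17, edgeR adjusted p = 0.00203) with a day 3 value of 0.06 ± 0.167 (edgeR adjusted p = 0.767) and a called interaction (log2 fold change 0.78 ± 0.238, edgeR adjusted p = 0.0119). Acvr1 (ALK2) fell at day 5 by the same pattern (log2 fold change -0.52 ± 0.125, edgeR adjusted p = 0.00238; interaction log2 fold change 0.62 ± 0.175, edgeR adjusted p = 0.00773), and without MEFD3min replicate 3 it was higher in treated cells at day 3, by 0.28 on the log2 scale (edgeR adjusted p = 0.0328). Bmpr2, the BMP type II receptor, fell at day 5 (log2 fold change -0.40 ± 0.109, edgeR adjusted p = 0.0053) with an interaction that was not called (log2 fold change 0.35 ± 0.153, edgeR adjusted p = 0.0681). That interaction passed the test without MEFD3min replicate 3 or MEFD5min replicate 4 (edgeR adjusted p from 0.00374 to 0.0236), and with DESeq2 or its size factors, only the compared samples, the replicate number as a block and total-count scaling (adjusted p from 0.0146 to 0.0439). The type II receptor Acvr2a rose on both days (0.57 ± 0.0767 at day 3 and 0.36 ± 0.0785 at day 5, edgeR adjusted p = 7.29e-06 and 0.00116).

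The betaglycan-like gene Tgfbr3l fell at day 5 (log2 fold change -1.19 ± 0.436, edgeR adjusted p = 0.0309), a call that was lost without MEFD5min replicate 3 or 4 or MEFD5plu replicate 1 or 3 (edgeR adjusted p from 0.0508 to 0.131), and 47% of its 50-base stretches also occur in Gm49320. Acvrl1, the ALK1 receptor known from endothelium, had 3, 0 and 2 in MEFD0, 2, 6 and 3 in MEFD3min, 0, 1 and 0 in MEFD3plu, 10, 20 and 23 in MEFD5min and 8, 7 and 6 in MEFD5plu counts, which were highest in MEFD5min and were not tested. In all, 6 of 12 tested receptors were called at day 3, 5 higher and 1 lower, and 11 at day 5, 5 higher and 6 lower. The share was 50% at day 3 against 56.1% of all genes, and 91.7% at day 5 against 50.5%. Their median log2 fold change was 0.11 at day 3 and -0.14 at day 5.

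Among extracellular antagonists, 2 rose and 3 fell of 8 at day 3, and 2 rose and 4 fell at day 5, with medians of -0.19 and -0.34. The called share of 62.5% at day 3 was near the 56.1% of all genes, and that of 75% at day 5 compares with 50.5%. Fst encodes follistatin, which binds and neutralises activin. It stood at 20.1, 20 and 17.5 in MEFD0, 0.909, 0.477 and 0.908 in MEFD3min and 8.24, 12.5 and 6.81 in MEFD5min CPM. With treatment, Fst was at 4.91, 4.83 and 4.40 in MEFD3plu and 2.06, 2.42 and 3.47 in MEFD5plu. MEFD0 was highest and MEFD3min lowest, and treated samples were above untreated ones at day 3 and below them at day 5, without overlap on either day. Fst rose at day 3 (log2 fold change 2.63 ± 0.28, edgeR adjusted p = 3.91e-07) and fell at day 5 (log2 fold change -1.78 ± 0.229, edgeR adjusted p = 6.51e-06). The interaction of 4.42 ± 0.361 (edgeR adjusted p = 4.43e-08) was the largest among the members with 10 or more counts in every sample. Both controls had themselves moved, with a decrease in MEFD3min/MEFD0 (log2 fold change -4.66 ± 0.267, edgeR adjusted p = 1.36e-10) and an increase in MEFD5min/MEFD3min (log2 fold change 3.59 ± 0.271, edgeR adjusted p = 1.43e-08).

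Grem1, a secreted BMP antagonist, was at 371 ± 11.3 CPM in MEFD0 and at 73.2 ± 10.4, 57.8 ± 5.22, 95.1 ± 21.4 and 93.7 ± 9.40 in MEFD3min, MEFD3plu, MEFD5min and MEFD5plu (mean ± SD, n = 3 each). Every later sample of Grem1 was at 120 CPM or below, against 360 or above at day 0. Its day 3 call (log2 fold change -0.34 ± 0.135, edgeR adjusted p = 0.0402) was lost without MEFD3min replicate 1 or 4 or MEFD3plu replicate 1 or 3 (edgeR adjusted p from 0.0699 to 0.17), and its day 5 value was -0.02 ± 0.133 (edgeR adjusted p = 0.916).

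Bmper, a secreted protein that binds BMPs, had 2.33, 2.78 and 2.34 in MEFD0, 0.815, 1.21 and 0.841 in MEFD3min and 0.475, 0.584 and 0.460 in MEFD5min CPM. With treatment, Bmper was at 14.5, 15 and 11.6 in MEFD3plu and 3.87, 3.74 and 3.92 in MEFD5plu. MEFD3plu was above all other conditions and the untreated samples of days 3 and 5 were below MEFD0. It had the largest increase of the antagonists on both days, at day 3 (log2 fold change 3.83 ± 0.181, edgeR adjusted p = 1.17e-11) and at day 5 (log2 fold change 2.93 ± 0.206, edgeR adjusted p = 5.05e-09). The interaction (log2 fold change 0.89 ± 0.291, edgeR adjusted p = 0.0174) was lost without MEFD5min replicate 3 (edgeR adjusted p = 0.0537).

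Chordin and chordin-like proteins also bind BMPs. Chrdl1 had 0, 0.0795 and 0.0558 in MEFD0, 17.3, 16.6 and 20.5 in MEFD3min and 20.6, 13.5 and 22 in MEFD5min CPM. With treatment, Chrdl1 was at 7.16, 9.15 and 8.37 in MEFD3plu and 12.7, 13 and 14.2 in MEFD5plu. It was nearly absent from MEFD0, with at most 3 counts, and present in every later sample. The level in MEFD3min was 370 times that in MEFD0 (counting interval 158 to 1140, edgeR adjusted p = 1.71e-12). Treated cells had less Chrdl1 at day 3 (log2 fold change -1.14 ± 0.169, edgeR adjusted p = 2.04e-05), and at day 5, where the groups overlapped, the decrease (log2 fold change -0.50 ± 0.165, edgeR adjusted p = 0.0184) was lost without MEFD5min replicate 1 or 4 or MEFD5plu replicate 1 or 3 (edgeR adjusted p from 0.0553 to 0.0767). Its interaction (log2 fold change -0.64 ± 0.235, edgeR adjusted p = 0.033) was lost without MEFD3min replicate 4, MEFD3plu replicate 1, MEFD5min replicate 3 or MEFD5plu replicate 3 or 4 (edgeR adjusted p from 0.051 to 0.0869). Chrd stood at 0.496 ± 0.0975 CPM in MEFD0, 12.7 ± 2.75 in MEFD3min and 6.84 ± 0.213 in MEFD3plu, and fell at day 3 (log2 fold change -0.90 ± 0.168, edgeR adjusted p = 0.00022).

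Fstl1, a secreted glycoprotein related to follistatin, was read at 1358 ± 65.6 CPM in MEFD3min and 1324 ± 37.6 in MEFD3plu, which overlapped, and rose at day 5 (log2 fold change 0.53 ± 0.0879, edgeR adjusted p = 9.54e-05) with a called interaction (log2 fold change -0.57 ± 0.124, edgeR adjusted p = 0.00121). Fstl3 fell at day 5 (log2 fold change -1.12 ± 0.287, edgeR adjusted p = 0.0037), but Prss57 on the other strand covers 47.3% of its exon bases.

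**Figure D3:**
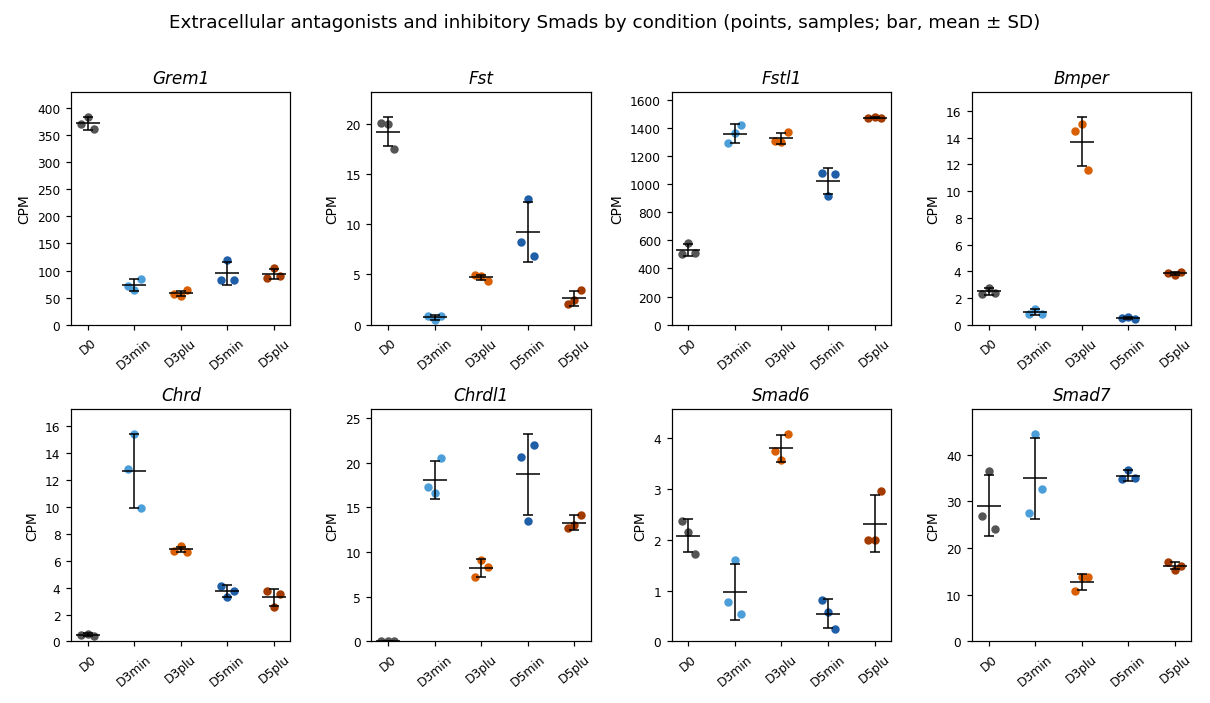
CPM of 6 extracellular antagonists and of the inhibitory Smads Smad6 and Smad7 in each of the 15 samples (points), with the mean and SD of each condition (black bars, n = 3) and axes from 0. Fst is above its control at day 3 and below it at day 5, Grem1 is highest in MEFD0, and Smad6 and Smad7 move in opposite directions.

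The inhibitory Smads moved in opposite directions. Smad6, which mainly restrains BMP receptors, stood at 2.37, 2.15 and 1.73 in MEFD0, 0.783, 1.60 and 0.538 in MEFD3min and 0.810, 0.584 and 0.243 in MEFD5min CPM. With treatment, Smad6 was at 3.75, 3.57 and 4.09 in MEFD3plu and 2.0, 2.0 and 2.96 in MEFD5plu. Treated samples were above untreated ones on both days, and MEFD3plu was the highest condition. Smad6 rose at day 3 (log2 fold change 1.94 ± 0.35, edgeR adjusted p = 0.000149) and at day 5 (log2 fold change 2.09 ± 0.386, edgeR adjusted p = 0.00026), with an interaction of -0.15 ± 0.516 (edgeR adjusted p = 0.837). Smad7, which restrains TGF-β receptors as well, had 26.9, 36.4 and 24.1 in MEFD0, 27.6, 44.5 and 32.7 in MEFD3min and 34.7, 36.8 and 35.1 in MEFD5min CPM. With treatment, Smad7 was at 10.8, 13.8 and 13.8 in MEFD3plu and 17, 15.4 and 16.1 in MEFD5plu. The 6 treated samples were at 17.0 CPM or below and the 9 untreated samples at 24.1 or above. Smad7 fell at day 3 (log2 fold change -1.45 ± 0.167, edgeR adjusted p = 1.11e-06) and at day 5 (log2 fold change -1.13 ± 0.165, edgeR adjusted p = 2.4e-05).

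Among the receptor-activated Smads, Smad1 of the BMP branch had 31.2, 28.8 and 27.2 in MEFD0, 34.1, 42.8 and 34.5 in MEFD3min and 37.9, 35.9 and 31.6 in MEFD5min CPM. With treatment, Smad1 was at 19.3, 23.5 and 22.3 in MEFD3plu and 17.8, 15.6 and 16.2 in MEFD5plu. Treated samples were below untreated ones on both days without overlap. Smad1 fell at day 3 (log2 fold change -0.78 ± 0.11, edgeR adjusted p = 1.21e-05) and at day 5 (log2 fold change -1.09 ± 0.112, edgeR adjusted p = 5.18e-07). Smad9, of the same branch, had 3.74, 4.80 and 4.22 in MEFD0, 0.313, 1.52 and 0.706 in MEFD3min and 0.614, 0.818 and 0.378 in MEFD5min CPM. With treatment, Smad9 was at 1.88, 1.54 and 1.64 in MEFD3plu and 0.179, 0.322 and 0.422 in MEFD5plu. MEFD0 was far above the rest, and the day 5 groups overlapped. Its day 3 increase (log2 fold change 0.97 ± 0.395, edgeR adjusted p = 0.0466) was lost without MEFD3min replicate 1 or 4 or MEFD3plu replicate 1, 3 or 4 (edgeR adjusted p from 0.0659 to 0.187). Smad9 at day 5 was at -0.93 ± 0.505 (edgeR adjusted p = 0.136), and the interaction (log2 fold change 1.90 ± 0.641, edgeR adjusted p = 0.0214) was lost without MEFD5min replicate 3 or MEFD5plu replicate 1 (edgeR adjusted p from 0.06 to 0.0616). Smad5 fell at day 3 (log2 fold change -0.52 ± 0.0844, edgeR adjusted p = 5.43e-05), and at day 5 it was at -0.21 ± 0.0845 (edgeR adjusted p = 0.0524). The day 5 value of Smad5 was called without MEFD5min replicate 3 or 4 (edgeR adjusted p from 0.0306 to 0.0455), and with DESeq2 or its size factors, only the compared samples, the replicate number as a block and total-count scaling (adjusted p from 0.00411 to 0.0409).

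Smad3, which carries TGF-β and activin signals, stood at 49.1, 50 and 40.1 in MEFD0, 81.7, 111 and 70 in MEFD3min and 73.5, 72.3 and 64.8 in MEFD5min CPM. With treatment, Smad3 was at 99, 107 and 90.4 in MEFD3plu and 62.5, 43.4 and 53.1 in MEFD5plu. The day 3 groups overlapped because MEFD3min replicate 3 was the highest sample, and at day 5 treated samples were below untreated ones. At day 3 the log2 fold change of Smad3 was 0.17 ± 0.15 (edgeR adjusted p = 0.344), and without MEFD3min replicate 3 it was 0.38 and called (edgeR adjusted p = 0.0206). The decrease at day 5 (log2 fold change -0.40 ± 0.151, edgeR adjusted p = 0.0343) was lost without MEFD5min replicate 1 or 3 or MEFD5plu replicate 3 or 4 (edgeR adjusted p from 0.0778 to 0.171). The interaction (log2 fold change 0.58 ± 0.213, edgeR adjusted p = 0.0333) was lost without MEFD3min replicate 1 or 4, MEFD3plu replicate 1 or 3, MEFD5min replicate 1 or 3 or MEFD5plu replicate 3 or 4 (edgeR adjusted p from 0.0573 to 0.0949). Smad2, its partner in the same branch, fell at day 3 (log2 fold change -0.57 ± 0.0721, edgeR adjusted p = 2.98e-06) with a called interaction (log2 fold change -0.42 ± 0.101, edgeR adjusted p = 0.00264) that was lost under scaling by the total counts (edgeR adjusted p = 0.067).

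Smad4, the Smad shared by both branches, had 90.8, 94.7 and 89.3 in MEFD0, 88.5, 101 and 84.2 in MEFD3min and 88.2, 98.1 and 82.1 in MEFD5min CPM. With treatment, Smad4 was at 83.8, 84.4 and 75.7 in MEFD3plu and 61.4, 56.2 and 57.9 in MEFD5plu. MEFD5plu was below all other conditions. It was at -0.17 ± 0.0855 at day 3 (edgeR adjusted p = 0.111), where it was called without MEFD3min replicate 4 (edgeR adjusted p = 0.0444). Smad4 fell at day 5 (log2 fold change -0.61 ± 0.0861, edgeR adjusted p = 1.74e-05), with a called interaction (log2 fold change 0.45 ± 0.121, edgeR adjusted p = 0.00577). The ubiquitin ligases Smurf1 and Smurf2, which target Smads and receptors for degradation, fell at day 5 (-0.58 ± 0.131 and -0.29 ± 0.0705, edgeR adjusted p = 0.00141 and 0.00259). At day 3 Smurf1 was at -0.25 ± 0.13 (edgeR adjusted p = 0.114), and was called with the replicate number as a block (edgeR adjusted p = 0.0427) and with no filter on low counts (edgeR adjusted p = 0.0439). In total, 6 of 10 Smads and Smurfs were called at day 3, 2 higher and 4 lower, and 7 at day 5, 1 higher and 6 lower, with medians of -0.21 and -0.49. The called shares of 60% and 70% compare with 56.1% and 50.5% of all genes.

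The other 4 members matched the name pattern without being ligands or receptors. Tgfb1i1 encodes Hic-5, an adaptor of focal adhesions that TGF-β induces. Its CPM were 66.2, 63.6 and 57.7 in MEFD0, 37.9, 53.1 and 34.4 in MEFD3min and 43.1, 47.2 and 38.7 in MEFD5min. With treatment, Tgfb1i1 was at 19.5, 24.6 and 17.1 in MEFD3plu and 36.6, 26.2 and 28 in MEFD5plu. MEFD0 was highest and MEFD3plu lowest. Tgfb1i1 fell at day 3 (log2 fold change -1.04 ± 0.166, edgeR adjusted p = 4.29e-05), and its decrease at day 5 (log2 fold change -0.51 ± 0.163, edgeR adjusted p = 0.016) was lost without MEFD5min replicate 3 or MEFD5plu replicate 3 or 4 (edgeR adjusted p from 0.0648 to 0.0796). The smooth muscle or myofibroblast marker sum was also lower in treated than in untreated cells on both days, as were Acta2, Tagln and Cnn1. Myh11 went the other way, from 0.121 to 0.474 CPM at day 3 and from 0.0806 to 1.23 CPM at day 5. The part of smooth muscle or myofibroblast cells in the decrease of Tgfb1i1 was not tested.

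Bmp1, a procollagen protease rather than a ligand of the family, stood at 132, 141 and 114 in MEFD0, 318, 406 and 278 in MEFD3min and 179, 156 and 162 in MEFD5min CPM. With treatment, Bmp1 was at 197, 214 and 174 in MEFD3plu and 159, 133 and 142 in MEFD5plu. MEFD3min was highest without overlap. Bmp1 fell at day 3 (log2 fold change -0.78 ± 0.127, edgeR adjusted p = 5.23e-05) and was at -0.19 ± 0.126 at day 5 (edgeR adjusted p = 0.216), with a called interaction (log2 fold change -0.58 ± 0.179, edgeR adjusted p = 0.0124). Under scaling by the total counts the interaction was lost (edgeR adjusted p = 0.0981) and the day 5 decrease was called (edgeR adjusted p = 0.0405).

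Bmp2k, a kinase named for its induction by BMP2, had 26.5, 28.8 and 23.9 in MEFD0, 21.6, 25.1 and 21.2 in MEFD3min and 20.4, 24.7 and 18.8 in MEFD5min CPM. With treatment, Bmp2k was at 38.6, 37.6 and 38.7 in MEFD3plu and 24.7, 21.6 and 22.9 in MEFD5plu. All MEFD3plu samples were above all others. Bmp2k rose at day 3 (log2 fold change 0.76 ± 0.107, edgeR adjusted p = 1.18e-05) and was at 0.12 ± 0.108 at day 5 (edgeR adjusted p = 0.39), with a called interaction (log2 fold change 0.64 ± 0.152, edgeR adjusted p = 0.00229). Paqr3 on the other strand covers 14% of its exon bases. Tgfbrap1, a protein that binds TGF-β receptors, had 37.5, 38.1 and 35.1 in MEFD0, 25.6, 28.1 and 20.6 in MEFD3min and 19, 21.2 and 15.4 in MEFD5min CPM. With treatment, Tgfbrap1 was at 35.6, 38.5 and 26.6 in MEFD3plu and 15.7, 14.4 and 15.8 in MEFD5plu. The treated and untreated groups overlapped on both days. Its day 3 increase (log2 fold change 0.44 ± 0.14, edgeR adjusted p = 0.0137) was lost without MEFD3min replicate 4 or MEFD3plu replicate 1 or 3 (edgeR adjusted p from 0.0514 to 0.083), and the interaction was called (log2 fold change 0.71 ± 0.202, edgeR adjusted p = 0.00773).

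Promoter sequence was available for 38 of the 54 members, in 49 windows from RefSeq on GRCm38.p6 that each run from 250 bases before to 50 bases after an annotated start. The windows were searched on both strands for a palindromic Smad site (GTCTAGAC), a GC-rich Smad site (GGCGCC), a cAMP response element (TGACGTCA) and a glucocorticoid response element consensus, and none of the matches printed here overlap each other. GTCTAGAC occurred in 1 member window, that of Smad6, and in 0.213% of all 32851 windows. TGACGTCA also occurred in 1 member window, that of Ltbp1 (2.04%), and in 1.79% of all windows. GGCGCC occurred in 14 member windows (28.6%), among them that of Tgfbr1, and in 11.9% of all windows, while the glucocorticoid response element occurred in 0 member windows and in 3 of all. Some windows of 1 gene overlap, and a match describes the letters without saying that a factor binds there.

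Windows of 3 members are shown. Those of Smad6 and Ltbp1 are the only member windows with GTCTAGAC and TGACGTCA, and that of Tgfbr1 is 1 example of the GGCGCC windows, which include those of other members called at day 3, among them Bmp2k, Chrd, Ltbp4 and Smad5. Each runs from the first base of the window to the base 4 after the annotated start, with the matches in capitals.
Smad6 (chr9:64022056-64022309, minus strand, ending across the start): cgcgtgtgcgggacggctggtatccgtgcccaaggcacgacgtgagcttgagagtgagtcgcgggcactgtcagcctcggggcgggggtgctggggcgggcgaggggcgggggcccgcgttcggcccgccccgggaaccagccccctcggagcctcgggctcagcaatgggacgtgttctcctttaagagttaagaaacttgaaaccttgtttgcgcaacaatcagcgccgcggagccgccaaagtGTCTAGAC
Ltbp1 (chr17:75005279-75005532, plus strand): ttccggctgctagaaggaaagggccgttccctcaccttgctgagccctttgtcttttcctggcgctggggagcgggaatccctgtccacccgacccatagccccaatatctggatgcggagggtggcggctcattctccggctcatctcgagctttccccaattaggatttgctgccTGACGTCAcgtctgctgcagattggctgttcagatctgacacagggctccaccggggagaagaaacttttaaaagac
Tgfbr1 (chr4:47352972-47353225, plus strand): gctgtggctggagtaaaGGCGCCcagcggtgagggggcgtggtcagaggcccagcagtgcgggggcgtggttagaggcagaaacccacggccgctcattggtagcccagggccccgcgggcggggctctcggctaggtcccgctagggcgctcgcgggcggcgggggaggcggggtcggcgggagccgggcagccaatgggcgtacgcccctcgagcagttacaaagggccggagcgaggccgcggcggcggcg
In Smad6 the capitals lie over the start site, and in Ltbp1 they begin at position -73 from it. Of the printed bases, 66.5% are G or C in Smad6, 56.7% in Ltbp1 and 75.2% in Tgfbr1.

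Other genes of the pathway, taken from lists outside the name pattern, were counted in the same fit. Of 29 tested extracellular and membrane regulators, 7 rose and 12 fell at day 3 (median -0.31), and 4 rose and 11 fell at day 5 (median -0.30). The called shares of 65.5% and 51.7% were near the backgrounds of 56.1% and 50.5%. Dcn, a matrix proteoglycan that can bind TGF-β, was at 15.3 ± 2.01 CPM in MEFD0, 2830 ± 376 in MEFD3min and 450 ± 76.8 in MEFD3plu. Both day 3 conditions were thus above the start, and Dcn was lower in treated than in untreated cells (log2 fold change -2.65 ± 0.191, edgeR adjusted p = 2.79e-09). At day 5 it did not pass the test (log2 fold change -0.20 ± 0.18, edgeR adjusted p = 0.39). Tll1, a protease of the Bmp1 family, was lower in treated than in untreated cells on both days (log2 fold change -2.61 ± 0.117, edgeR adjusted p = 6.04e-12 at day 3, and log2 fold change -1.27 ± 0.11, edgeR adjusted p = 7.05e-08 at day 5). Its mean was 27.1 CPM in MEFD0, 15.8 in MEFD3plu and 43.2 in MEFD5plu, while MEFD3min was at 96.9 and MEFD5min at 104. Pcsk6, one of the proteases that process precursors of the family, was low, at 0.221 ± 0.104 CPM in MEFD3min and 0.937 ± 0.166 in MEFD3plu. It rose at day 3 (log2 fold change 2.05 ± 0.421, edgeR adjusted p = 0.000504) and was at 0.11 ± 0.527 at day 5 (edgeR adjusted p = 0.881). The interaction of Pcsk6 was called (log2 fold change 1.93 ± 0.685, edgeR adjusted p = 0.0273). Mstn, the ligand myostatin, was at 0.0994 ± 0.122 CPM in MEFD3min and 0.659 ± 0.246 in MEFD3plu and rose at day 3 (edgeR adjusted p = 0.00755).

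Of 25 tested intracellular regulators, 6 rose and 8 fell at day 3 (median -0.02), and 5 rose and 10 fell at day 5 (median -0.12). The called share was 56% at day 3, about that of all genes, and 60% at day 5 against 50.5%. The Smad co-repressors Skil and Tgif1 fell on both days, Skil at day 3 (log2 fold change -1.06 ± 0.0772, edgeR adjusted p = 3.3e-09) and day 5 (log2 fold change -0.68 ± 0.0761, edgeR adjusted p = 1.53e-06) and Tgif1 at day 3 (log2 fold change -1.07 ± 0.0869, edgeR adjusted p = 1.34e-08) and day 5 (log2 fold change -0.83 ± 0.0853, edgeR adjusted p = 5.76e-07). Pmepa1, an inhibitor that TGF-β induces, was lower in treated than in untreated cells at day 5 (log2 fold change -1.36 ± 0.139, edgeR adjusted p = 5.14e-07) and at day 3 (log2 fold change -0.68 ± 0.138, edgeR adjusted p = 0.00045). Its mean was 23.3 CPM in MEFD0, 23 in MEFD3plu and 22.7 in MEFD5plu, while MEFD3min was at 36.8 and MEFD5min at 58.1. Skil was likewise at 39.9 CPM in MEFD0, 44.4 and 75.1 in MEFD3plu and MEFD5plu, and 92.6 and 120 in MEFD3min and MEFD5min. Tgif1, at 86 CPM in MEFD0, was below that in MEFD3plu (30) and MEFD5plu (54.3). Zfp423, a transcriptional regulator of preadipocytes that works with BMP Smads, was at 0.0919 ± 0.026 CPM in MEFD3min and 1.33 ± 0.162 in MEFD3plu and rose at day 3 (edgeR adjusted p = 7.94e-06).

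Genes known to respond to TGF-β changed on both days. Of 23 tested, 12 fell and 8 rose at day 3 (median -0.73), and 16 fell and 4 rose at day 5 (median -0.71). The 87% called on each day compare with the backgrounds of 56.1% and 50.5% given above. The controls had themselves moved. Against MEFD0, 13 rose and 9 fell in MEFD3min, and 18 rose and 2 fell in MEFD5min. With treatment, 12 rose and 9 fell in MEFD3plu, and 11 rose and 8 fell in MEFD5plu. In this order the called shares were 95.7%, 87%, 91.3% and 82.6%, against 60.0%, 46.4%, 63.5% and 65.0% of all genes. At day 3, Tgfbi, a secreted matrix protein, had 451 ± 49.7 CPM without and 50.3 ± 5.35 CPM with treatment (log2 fold change -3.16 ± 0.14, edgeR adjusted p = 5.38e-12). Tagln and Acta2, of the contractile cytoskeleton, fell by 2.86 and 2.61 on the log2 scale at day 3. At day 5, Ccn2, a matricellular growth factor, was lower (log2 fold change -2.35 ± 0.222, edgeR adjusted p = 2.01e-07), as was Igfbp3, a binding protein of insulin-like growth factors (log2 fold change -2.35 ± 0.142, edgeR adjusted p = 7.54e-10). Postn, a matrix protein, rose on both days (log2 fold change 2.0 ± 0.202, edgeR adjusted p = 2.1e-07 at day 3; log2 fold change 2.36 ± 0.204, edgeR adjusted p = 6.86e-08 at day 5). Tagln, Acta2 and Cnn1 belong both to this list and to the smooth muscle or myofibroblast markers, whose part in these counts was not tested.

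BMP-responsive genes were fewer. Of 7 tested, 4 rose and 1 fell at day 3 (median 0.36), and 1 rose and 3 fell at day 5 (median -0.33). The called shares were 71.4% and 57.1% against 56.1% and 50.5% of all genes. Atoh8 had 1.38 ± 0.304 CPM in MEFD3min and 13.5 ± 0.262 in MEFD3plu and rose on both days (log2 fold change 3.28 ± 0.165, edgeR adjusted p = 2.45e-11 at day 3; log2 fold change 1.97 ± 0.221, edgeR adjusted p = 1.44e-06 at day 5). Id4 was nearly absent from MEFD3min, at 0.0292 ± 0.0281 CPM against 1.45 ± 0.0721 in MEFD3plu (edgeR adjusted p = 2.73e-06), and its day 5 groups did not differ by the test (log2 fold change -0.33 ± 0.559, edgeR adjusted p = 0.661). Msx2 fell on both days (log2 fold change -2.14 ± 0.344, edgeR adjusted p = 4.71e-05 at day 3; log2 fold change -2.36 ± 0.306, edgeR adjusted p = 7.29e-06 at day 5). Runx2, a regulator of bone formation, rose at day 3 (log2 fold change 0.36 ± 0.146, edgeR adjusted p = 0.0445) and fell at day 5 (log2 fold change -0.75 ± 0.147, edgeR adjusted p = 0.000458). The classical BMP response gene Id1 rose at day 3 (log2 fold change 0.50 ± 0.16, edgeR adjusted p = 0.0141), and Id2 and Id3 did not pass the test there. Against MEFD0, 5 of the 7 genes were called lower and 0 higher in MEFD3min, where 28.6% and 31.4% of all genes were. In MEFD3plu, 3 were called lower and 1 higher, against 29.7% and 33.9%. Id1, Id4 and Runx2 were at 47.3 ± 5.12, 1.56 ± 0.119 and 34 ± 3.42 CPM in MEFD0, above their means in both day 3 conditions. Atoh8, at 7.32 ± 0.578 CPM in MEFD0, was lower in MEFD3min and higher in MEFD3plu.

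**Figure D4:**
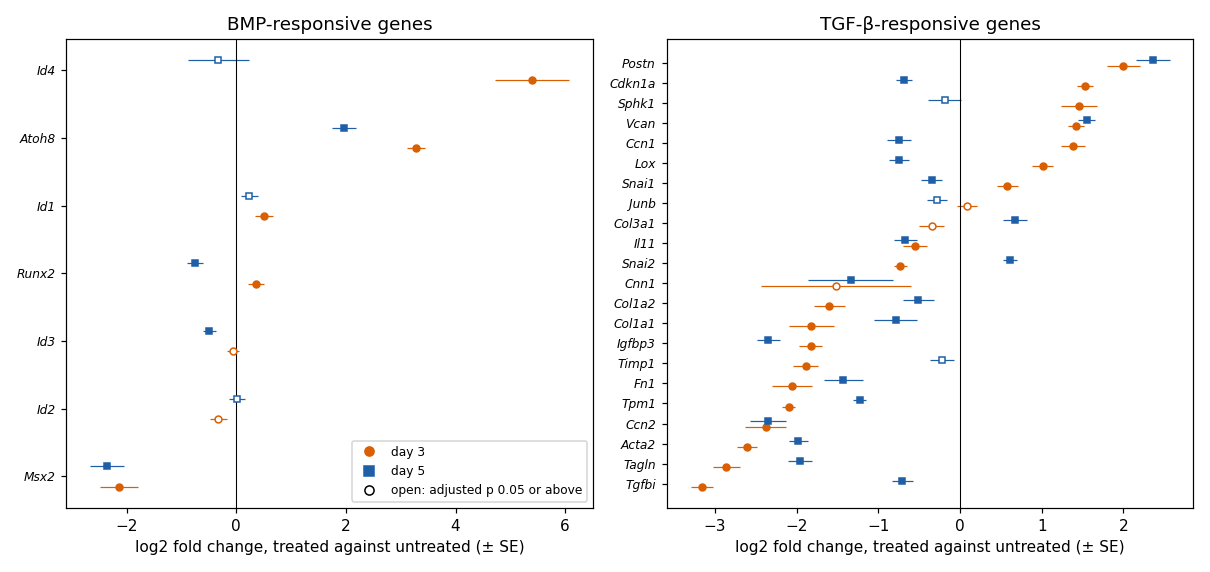
Log2 fold change of treated against untreated cells for 7 BMP-responsive (left) and the reported TGF-β-responsive genes (right), at day 3 (circles) and day 5 (squares), with bars for the standard error and open symbols for an adjusted p of 0.05 or above. Tgfbi, Tagln and Acta2 have the lowest day 3 values on the right, and Postn has the highest on both days.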

How the data were processed

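RNA-Seq libraries of 15 MEF samples in 5 conditions were analysed. The authors deposited, for each sample, raw counts of reads on Ensembl genes, without normalization, on GRCm38. Per the labels, the submitters' processing notes name TopHat2 2.1.0, HTSeq and DESeq2. The labels name an unstranded TruSeq kit and the paper a stranded one, and the strand setting, annotation release and handling of multiply mapping reads are not given in the sources used here, so overlapping genes are named where they cover more than 10% of a member's exon bases. All samples were used, grouped by their labels.

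Identifiers were named with GENCODE M21 (46091 of 46603). In R 4.3.3, edgeR 4.0.16 kept 15997 genes (filterByExpr), with TMM scaling and glmQLFit and glmQLFTest over all 15 samples, no covariates, and Benjamini-Hochberg adjustment. The alternatives were DESeq2 1.42.0, its size factors in edgeR, total-count scaling, no filter, 10 counts in every sample, only the compared samples, an adjusted p under 0.01, a 2-fold change, a replicate block and each sample left out. A group with 3 counts or fewer in every sample was taken as at the floor. Floors and counting intervals (95%) cover counting error only. Deviations from the condition means correlated at 0.143, 0.228 and 0.36 between same-numbered MEFD3min and MEFD3plu samples, so the replicate numbers pair these by the data alone, and the blocked value is given where it changes a day 3 call. The edgeR and DESeq2 calls were tested on simulated counts in which few genes were changed, and in MEFD3plu alone. That setting does not probe the scaling under changes as broad as those called here. Members and lists were chosen with earlier results of these data known. Every member may be named, and values in every sample are given for Tgfb1 to Tgfb3, Tgfbr1 to Tgfbr3, Smad3, Inhbb, Tgfb1i1 and, within each role, up to 3 members with the largest called change in the day 3, day 5 and interaction comparisons. Further per-sample values (Inhba, Bmp2, Acvrl1) were added after values were seen. From the other lists up to 4 genes with the largest change were named, and Igfbp3, Postn, Id1, Id2 and Id3 were added after values were seen. Some genes that entered the fit and the counts are not reported here.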

Additional observations from a re-analysis of the deposited data

Results flagged for a closer look

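The treatment effect differed between day 3 and day 5 in 31 members by the interaction test (edgeR, adjusted by the Benjamini-Hochberg method), and each value here is the day 3 minus the day 5 effect on the log2 scale. The values above 0 include Fst 4.42, Gdf15 2.94, Smad9 1.90, Acvr2b 1.18, Tgfb1 1.05, Ltbp1 1.04, Ltbp2 0.98, Bmper 0.89, Acvr1b 0.78, Tgfbrap1 0.71, Tgfbr2 0.65, Bmp2k 0.64, Acvr1 0.62, Smad3 0.58, Tgfbr1 0.50, Smad4 0.45 and Smurf2 0.26. The values below 0 were Bmp10 -10.31, Bmp5 -5.14, Bmpr1b -2.39, Tgfb2 -1.89, Bmp2 -1.26, Tgfb3 -1.0, Chrd -0.71, Chrdl1 -0.64, Bmp1 -0.58, Fstl1 -0.57, Bmpr1a -0.42, Smad2 -0.42 and Smad5 -0.31. The values of Bmp10, Bmp5 and Gdf15 rest on groups near 0 counts and depend on the prior count of the fit. Calls of Acvr2b, Bmp2, Bmper, Chrd, Chrdl1, Gdf15, Smad3, Smad5, Smad9 and Smurf2 were lost when 1 of the samples was left out. Under scaling by the total counts, the calls of Bmp1, Bmp2, Bmpr1a, Chrd, Chrdl1, Smad2 and Smad5 were lost. Those of Acvr2a, Bmpr2, Smad1 and Tgfbr3 were added under that scaling. The gap test for outlying samples was not applied, since it needs at least 4 samples a group.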

How the results depend on the processing

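Under the alternatives run, called members kept their direction. Requiring a 2-fold change left 19 members at day 3, 18 at day 5, 13 in the interaction, 16 in MEFD5min/MEFD0, 14 in MEFD5min/MEFD3min, 15 in MEFD5plu/MEFD3plu and 23 in MEFD5plu/MEFD0, and an adjusted p under 0.01 left 17 in the interaction. The shares of all genes at these thresholds are not given here, so these counts were not compared with a background. Leaving out 1 sample gave 31 to 38 calls at day 3, 33 to 39 at day 5, 23 to 33 in the interaction, 36 to 39 in MEFD3min/MEFD0, 29 to 34 in MEFD5min/MEFD0, 26 to 30 in MEFD5min/MEFD3min and 34 to 37 in MEFD5plu/MEFD3plu. DESeq2 called 34 members at day 3 and 41 at day 5. Under total-count scaling the median change over all genes shifted by -0.16 on the log2 scale at day 5 and by 0.18 in the interaction. Its calls there were 42 (11 higher, 31 lower) and 28.

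The replicate number as a block gave 35 calls at day 3, 39 at day 5 and 34 in the interaction. At day 3, where same-numbered samples deviated together, the block changed no treatment call other than that of Smurf1. Over the 30 same-numbered pairs of all conditions the correlations were -0.152 to 0.36, with 10 over 0.1. Same-numbered samples of MEFD0 and MEFD3min correlated at 0.0837, 0.132 and 0.18, and those of MEFD0 and MEFD3plu at 0.124, 0.0706 and 0.11. The labels do not say whether these samples were paired. In MEFD3min/MEFD0 the block lost the call of Acvr1c (edgeR adjusted p = 0.055) and added that of Gdf9 (edgeR adjusted p = 0.047). In MEFD3plu/MEFD0 it added those of Fstl3 and Smad4. The block also added the calls of Ltbp1 and Smad5 at day 5 and of Bmpr2, Tgfb1i1 and Tgfbr3 in the interaction (edgeR adjusted p = 0.0326, 0.0203 and 0.0325).

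Precision is limited by 3 samples per condition. At this depth, members under about 10 counts a sample in a compared condition, such as Bmp5, Bmp7, Bmp10 and Gdf15, give ratios with wide counting intervals.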
